A study of Mus musculus with 6 samples.

Results

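A set of 10 genes of the epithelial-mesenchymal transition (EMT) was followed in RNA from mouse thyroid tumor cells, as the rows of the deposited table whose symbols are Snai1, Snai2, Twist1, Zeb1, Zeb2, Cdh1, Cdh2, Vim, Esrp1 and Grhl2. All 10 were among the 35027 genes of the table. The comparison was between tumors driven by mutant YAP alone (YAP, 3 libraries) and tumors that also expressed mutant Braf (BrafYAP, 3 libraries), and the question was how the EMT regulators and the cadherins differed between the genotypes. In both groups Cre under a promoter active in thyroid follicular cells switched on a reverse tetracycline transactivator and the red fluorescent protein Kate from the Rosa26 locus, and doxycycline chow, given from 4 weeks of age, then induced YAPS127A, a YAP that stays in the nucleus. In BrafYAP tumors the same Cre also switched on a mutant Braf allele at its own locus, so that the controls shared every other engineered allele and the doxycycline. Per the study the mice were of mixed background. Kate-positive cells, about 20000 a library, were sorted before RNA extraction. Per the labels each YAP library held 3 pooled tumors and each BrafYAP library 1 tumor, so that pooling and genotype cannot be told apart here. The age of the mice at collection was not given in the sources used here.

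EMT is a change in cell state in which epithelial cells lose cell-cell junctions and gain motility. The zinc-finger factors SNAI1 (Snail), SNAI2 (Slug), ZEB1 and ZEB2 and the basic helix-loop-helix factor TWIST1 promote it, and SNAI and ZEB proteins bind E-box sequences in the promoter of Cdh1 and repress it. Cdh1 encodes E-cadherin, the adhesion molecule of adherens junctions, and Cdh2 encodes N-cadherin. Exchange of the former for the latter is called the cadherin switch. Vim encodes vimentin, the intermediate filament protein of mesenchymal cells. ESRP1 is a splicing regulator of epithelial cells and GRHL2 is a transcription factor that maintains Cdh1 expression and opposes Zeb1. YAP acts on genes mainly through TEAD DNA-binding proteins.

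Promoters of 3 of the EMT factors are shown because the factors themselves bind E-boxes and YAP acts through TEAD sites. Each is the stretch of 250 bases just upstream of the transcription start, 5′ to 3′ on the gene's strand, from RefSeq on GRCm38.p6 (mm10). Capitals mark matches on either strand to CAGGTG, an E-box (CACCTG on the other strand), or GGAATG, the core of the TEAD motif (CATTCC on the other strand). The Snai1 window is chr2:167537945-167538194 on the plus strand, the Twist1 window chr12:33957421-33957670 on the plus strand, and the Zeb2 window, at the outermost of 4 listed starts, chr2:45117443-45117692 on the minus strand.
Snai1: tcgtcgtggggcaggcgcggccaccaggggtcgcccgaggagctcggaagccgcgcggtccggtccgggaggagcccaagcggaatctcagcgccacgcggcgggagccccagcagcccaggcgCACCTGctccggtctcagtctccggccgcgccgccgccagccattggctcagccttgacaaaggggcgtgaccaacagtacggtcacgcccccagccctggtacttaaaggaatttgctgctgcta
Twist1: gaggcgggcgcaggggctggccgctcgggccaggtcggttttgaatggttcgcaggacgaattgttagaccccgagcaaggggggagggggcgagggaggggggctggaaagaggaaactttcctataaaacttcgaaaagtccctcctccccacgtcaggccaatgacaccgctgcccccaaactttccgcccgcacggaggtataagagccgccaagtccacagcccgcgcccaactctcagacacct
Zeb2: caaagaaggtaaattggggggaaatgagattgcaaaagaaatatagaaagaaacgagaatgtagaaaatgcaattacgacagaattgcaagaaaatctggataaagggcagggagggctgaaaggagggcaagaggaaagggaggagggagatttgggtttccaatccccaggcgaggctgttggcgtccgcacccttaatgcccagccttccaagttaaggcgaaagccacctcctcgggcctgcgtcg
Snai1 had 1 E-box match, whose first base lies at position -126 counted from the start site, and no match to GGAATG. The Twist1 and Zeb2 windows shown held neither. In 1 of the other Zeb2 windows, which overlaps annotated exons and is not shown, 1 GGAATG match was found. Of 32851 RefSeq promoter windows of the same length, 17.2% held CAGGTG and 12.6% held GGAATG on either strand. These matches describe letters only, and binding was not measured. The Vim window, also not shown, held neither motif. Snai2, Cdh1, Esrp1 and Grhl2 were not in the promoter table, and no window is given here for Zeb1 or Cdh2.

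The 6 libraries held 26153296 to 36912154 estimated reads and 21887 to 23004 genes above the offset. An estimated read is 1 step of the deposited values multiplied by the gene's genomic span. For comparisons between libraries these were put on a common scale (scaled reads), and levels of different genes were compared only as scaled reads per kb of exon. The log2 fold change, BrafYAP minus YAP, was -0.02 (SE 0.65) for Yap1 and -0.04 (SE 0.41) for Braf by limma (adjusted p = 0.987 and 0.963), and the reads do not separate transgene or mutant allele from the normal gene. Yap1 was uneven within BrafYAP: it stood at 84.6, 84.4 and 98.0 scaled reads per kb in YAP and at 148, 158 and 28.5 in BrafYAP, lowest in replicate 6. Of 8 thyroid follicular cell markers tested, 4 had a positive and 4 a negative log2 fold change (median -0.14). At an unadjusted p under 0.05, 1, Hhex, was higher in BrafYAP, beside 9.68% of all genes. Pax8 stood at 1909, 2027 and 2419 scaled reads per kb in YAP libraries and at 2058, 1192 and 856 in BrafYAP libraries, while Tshr was at 23.9, 10.4 and 4.28 in YAP and at 0, 0 and 81.8 in BrafYAP. The summed level of 8 endothelial markers ran from 59.2 to 429.8 scaled reads per kb in YAP and from 37.4 to 881 in BrafYAP. It was highest in BrafYAP replicate 6, and 0 of 8 had an unadjusted p under 0.05, beside 20.2% of all genes. C-cell markers summed to between 31.7 and 1095 in YAP and between 22.5 and 2888 in BrafYAP, again highest in replicate 6. The 7 skeletal muscle markers summed to between 75.7 and 260.3 in YAP and between 17.7 and 50.9 in BrafYAP. In bulk RNA, fewer cells of a type and less RNA per cell cannot be told apart.

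E-cadherin and vimentin were the abundant transcripts of the set, and every EMT transcription factor stood far below them. Averaged over the 6 libraries, Vim stood at 11281 scaled reads per kb and Cdh1 at 3751, followed by Esrp1 at 114, Zeb1 at 73.0, Grhl2 at 57.1, Zeb2 at 36.3, Snai1 at 34.5, Snai2 at 18.3, Cdh2 at 5.87 and Twist1 at 2.36. Between neighbours in this order the ranges over libraries overlapped, with the exception of Cdh1 and Esrp1: the lowest Cdh1 level was 2089 and the highest Esrp1 level 169. In the deposited table, which divides by genomic span, 8 of the 10 had a mean under 1. The factor between span and exonic length ran from 1.33 for Twist1 to 27.3 for Cdh2, so the deposited order of the genes is partly an order of intron length.

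**Figure D1:**
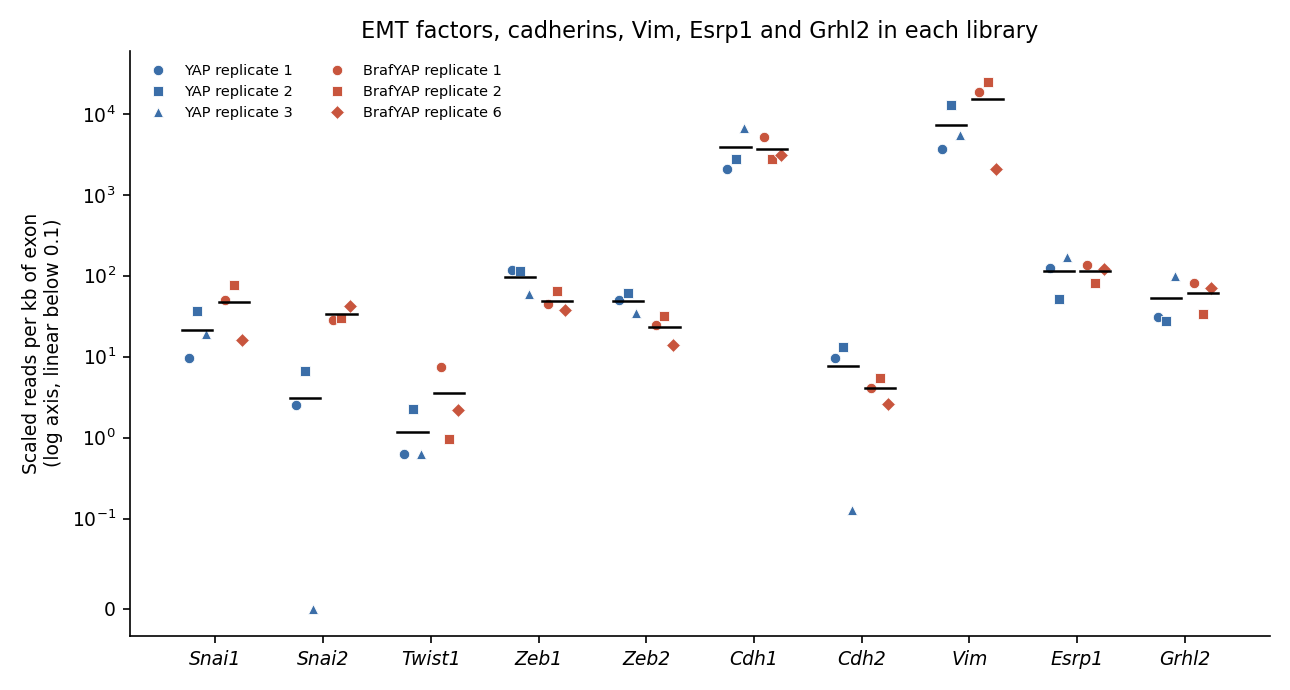
Level of the 10 genes in each library, in scaled reads per kb of exon on an axis that is logarithmic above 0.1 and linear below. Points are libraries (blue YAP, red BrafYAP) and bars are group means. The 3 BrafYAP points of Snai2 (28.5 to 42.2) sit above the 3 YAP points (0 to 6.66), those of Zeb2 sit below, and for the other 8 genes the groups overlap.

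Between genotypes, Snai2 was higher in all 3 BrafYAP libraries and Zeb2 lower in all 3, and neither passed the threshold after adjustment. Zeb1 had lower mean levels in BrafYAP with overlapping libraries. Cdh1, Cdh2, Vim, Esrp1 and Grhl2 overlapped between the groups, and no exchange of one cadherin for the other was detected in this fit. With array weights the log2 fold changes were -0.50 for Cdh1 and 3.29 for Cdh2 (adjusted p = 0.357 and 0.0613 by limma). Mean Cdh2 was, however, lower in BrafYAP, at 4.07 against 7.67 scaled reads per kb. Without YAP replicate 3, which had 1 Cdh2 read, the log2 fold change of Cdh2 was -1.5. Of the 10 genes, 9 reached a mean of 10 scaled reads over all 6 libraries and were tested, and Twist1 did not. Snai2 reached it through BrafYAP alone, at a mean of 67.8 scaled reads against 6.2 in YAP. Its test is therefore not independent of the filter. With no filter its adjusted p was 0.177 by limma. By limma with Benjamini-Hochberg adjustment over all 16832 genes tested, 0 of the 9 passed an adjusted p of 0.05, as did 0.0% of all genes (0 genes, smallest adjusted p 0.0517). At an unadjusted p under 0.05, where 20.2% of all genes fell (3404 genes), 3 of the 9 fell: Snai2, higher in BrafYAP (9.68% of all genes), and Zeb1 and Zeb2, lower (10.5%). The groups did not overlap for 2 of the 9, Snai2 higher (11.7% of all genes were higher in this way) and Zeb2 lower (17.1%). Beside these background shares, counts of 3 and 2 among 9 genes are no result about the genes as a set. The median log2 fold change of the 9 was 0.33, with 7 above 0 and 2 below, beside -0.12 over all genes tested.

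**Figure D2:**
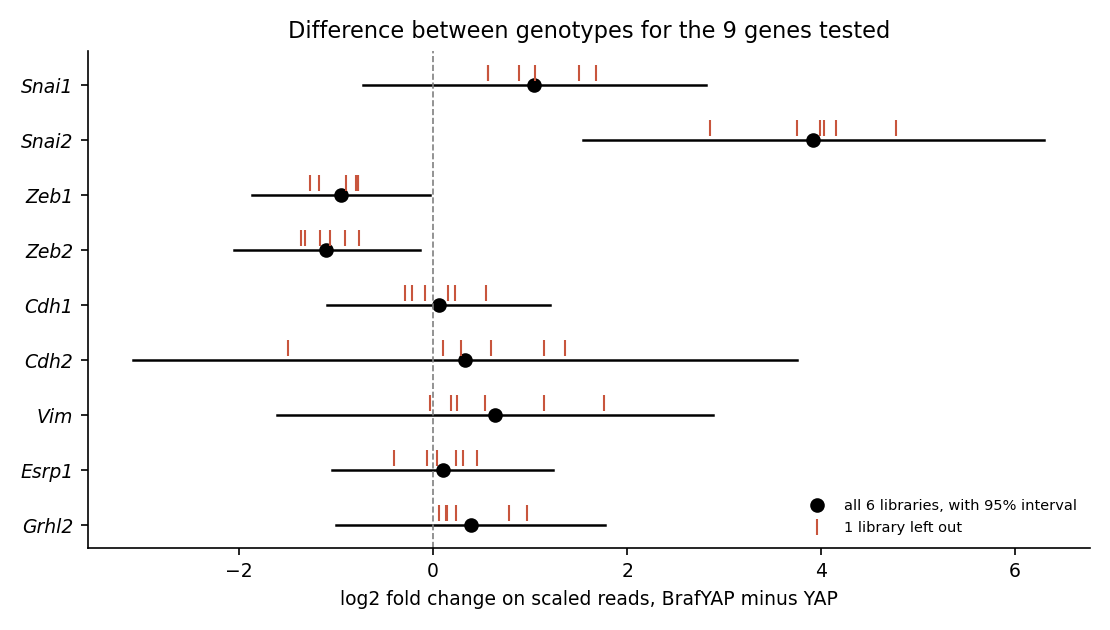
Log2 fold change, BrafYAP minus YAP, on log2(scaled reads + 1) for the 9 genes tested. Dots with lines give the limma estimate and its 95% interval over 6 libraries, and red ticks the estimate with 1 library left out. The intervals of Snai2, Zeb1 and Zeb2 lie to one side of 0, and the widest is that of Cdh2 (-3.09 to 3.75).

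Of the SNAI and TWIST factors, Snai2 had the largest difference between genotypes among the 9 genes tested, and Snai1 was variable in both groups. Snai2 (ENSMUSG00000022676.7, chr16:14705852-14709385, plus strand) encodes Slug. It had 5, 11 and 0 estimated reads in YAP replicates 1, 2 and 3 and 52, 77 and 96 in BrafYAP replicates 1, 2 and 6, that is 2.54, 6.66 and 0 against 28.5, 29.9 and 42.2 scaled reads per kb. A count of 0 allows up to 3 reads in that library, for counting error only. The lowest BrafYAP library therefore lay above the highest YAP library, and the group means were 3.07 ± 3.36 and 33.5 ± 7.52 scaled reads per kb (SD, n = 3 each), a ratio of 10.9. The log2 fold change on log2(scaled reads + 1) was 3.92 (SE 1.01, 95% interval 1.55 to 6.30, unadjusted p = 0.00566, adjusted p = 0.115 by limma). With so few reads in YAP libraries it depended on the constant added, at 5.12 with 0.1 and 2.33 with 10 (adjusted p = 0.189 and 0.0745), and on values divided by exonic length it was 1.68 (adjusted p = 0.0623). Leaving out each library in turn gave log2 fold changes of 2.85 to 4.77 and adjusted p-values of 0.0686 to 0.271 by limma, all positive. Fibroblasts also express Snai2. Of 8 fibroblast markers tested, 2 were higher and 1 lower in BrafYAP at an unadjusted p under 0.05 (9.68% and 10.5% of all genes). Their median log2 fold change was 0.72. The summed level of all 9 markers ran from 1499 to 3044 scaled reads per kb in YAP and from 1657 to 3165 in BrafYAP. The higher ones were Lum, at 31.9, 15.0 and 7.15 against 47.5, 50 and 269, and Dcn, at 414, 152 and 64.6 against 454, 994 and 506, both proteoglycans of the matrix. Col1a1, a collagen chain, was the lower one, at 607, 992 and 461 against 259, 375 and 127. The part of these cells in the Snai2 values was not tested.

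Snai1 (ENSMUSG00000042821.7, chr2:167538195-167542814, plus strand), which encodes Snail, had 15, 48 and 30 estimated reads in YAP libraries and 73, 158 and 29 in BrafYAP libraries. Its level was 9.51, 36.2 and 19.1 scaled reads per kb in YAP and 49.9, 76.5 and 15.9 in BrafYAP. BrafYAP replicates 1 and 2 were above every YAP library, and replicate 6 was below 2 of the 3. The means were 21.6 ± 13.5 and 47.4 ± 30.4 scaled reads per kb (SD, n = 3 each). On the same scale its log2 fold change was 1.04 (SE 0.75, 95% interval -0.72 to 2.81, adjusted p = 0.461 by limma), 1.68 without BrafYAP replicate 6 (adjusted p = 0.205), and 0.57 without either YAP replicate 1 or BrafYAP replicate 2. Scaled per kb, Snai1 exceeded Snai2 by a factor of 3.74 and 5.44 in YAP replicates 1 and 2 and of 1.75 and 2.56 in BrafYAP replicates 1 and 2. In BrafYAP replicate 6 the ratio was 0.377, so that Slug transcripts were the more abundant there. Twist1 (ENSMUSG00000035799.6, chr12:33957671-33959829, plus strand) was at the limit of detection, with 1, 3 and 1 estimated reads in YAP and 11, 2 and 4 in BrafYAP, a mean of 3.84 scaled reads. It was not tested and no fold is given.

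Zeb1 and Zeb2 were both at lower mean levels in BrafYAP, by about the same factor, and both stood beside lower leukocyte markers. Zeb1 (ENSMUSG00000024238.15, chr18:5591860-5775467, plus strand) was at 119, 113 and 58.9 scaled reads per kb in YAP and at 44.7, 65.7 and 37.4 in BrafYAP. BrafYAP replicate 2 lay above YAP replicate 3, so the groups overlapped. The means were 96.8 ± 33.0 and 49.2 ± 14.7 scaled reads per kb (SD, n = 3 each), a ratio of 1.97 of YAP to BrafYAP. BrafYAP minus YAP, the log2 fold change was -0.95 (SE 0.39, 95% interval -1.87 to -0.03, unadjusted p = 0.0447, adjusted p = 0.236 by limma) and ran from -1.27 to -0.77 with 1 library left out.

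Zeb2 (ENSMUSG00000026872.17, chr2:44983632-45117395, minus strand) was at 50.4, 61.5 and 34.9 scaled reads per kb in YAP and at 24.6, 32.2 and 14.0 in BrafYAP. All 3 BrafYAP libraries lay below all 3 YAP libraries, by a small margin at BrafYAP replicate 2 and YAP replicate 3. The means were 49.0 ± 13.4 and 23.6 ± 9.13 scaled reads per kb (SD, n = 3 each), a ratio of 2.08. The log2 fold change was -1.10 (SE 0.40, 95% interval -2.05 to -0.14, unadjusted p = 0.0294, adjusted p = 0.200 by limma) and ran from -1.36 to -0.76 with 1 library left out. Zeb1 exceeded Zeb2 in every library, by a factor of 1.69 to 2.67. Zeb2os, a gene on the opposite strand that overlaps Zeb2, had 53.3, 36.7 and 31.5 estimated reads in YAP and 16.9, 17.6 and 4.0 in BrafYAP, against 314 to 1003 for Zeb2. The library kit does not mark strand, so reads of overlapping genes cannot be told apart.

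Macrophages and other leukocytes express Zeb2, and their markers were also lower in BrafYAP. All 8 leukocyte markers tested had negative log2 fold changes (median -1.81, and -2.19 to -1.35 with 1 library left out). Of the 8, 6 were lower at an unadjusted p under 0.05 (10.5% of all genes), and 0 passed the adjusted threshold. Ptprc, the pan-leukocyte surface protein CD45, was at 139, 132 and 91.3 scaled reads per kb in YAP and at 33.5, 22.3 and 47.7 in BrafYAP (log2 fold change -1.85, SE 0.37, adjusted p = 0.0889 by limma). The summed level of the 9 markers was 494276, 370128 and 138972 scaled reads per kb in YAP and 151152, 112116 and 39565 in BrafYAP, most of it lysozyme, Lyz2, of macrophages. YAP replicate 3, the YAP library with the lowest leukocyte sum, also had the lowest Zeb1 and Zeb2 of its group, and BrafYAP replicate 6 had the lowest of all 3 measures over the 6 libraries. The order did not hold throughout: BrafYAP replicate 1 had a higher sum than YAP replicate 3 with lower Zeb1 and Zeb2, and BrafYAP replicate 2 had a lower sum than BrafYAP replicate 1 with higher Zeb1 and Zeb2. By Ptprc alone, replicate 6 was the highest of the BrafYAP libraries (47.7 scaled reads per kb). Snai2 was highest where the leukocyte sum was lowest and 0 in YAP replicate 3. Leukocyte markers were not the only lower ones. The 18 mesenchymal genes described below had a median log2 fold change of -1.19 (-0.15 without BrafYAP replicate 6), whereas that of the fibroblast markers was 0.72. The part of leukocytes or of mesenchymal cells in the Zeb1 and Zeb2 values was not tested.

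**Figure D3:**
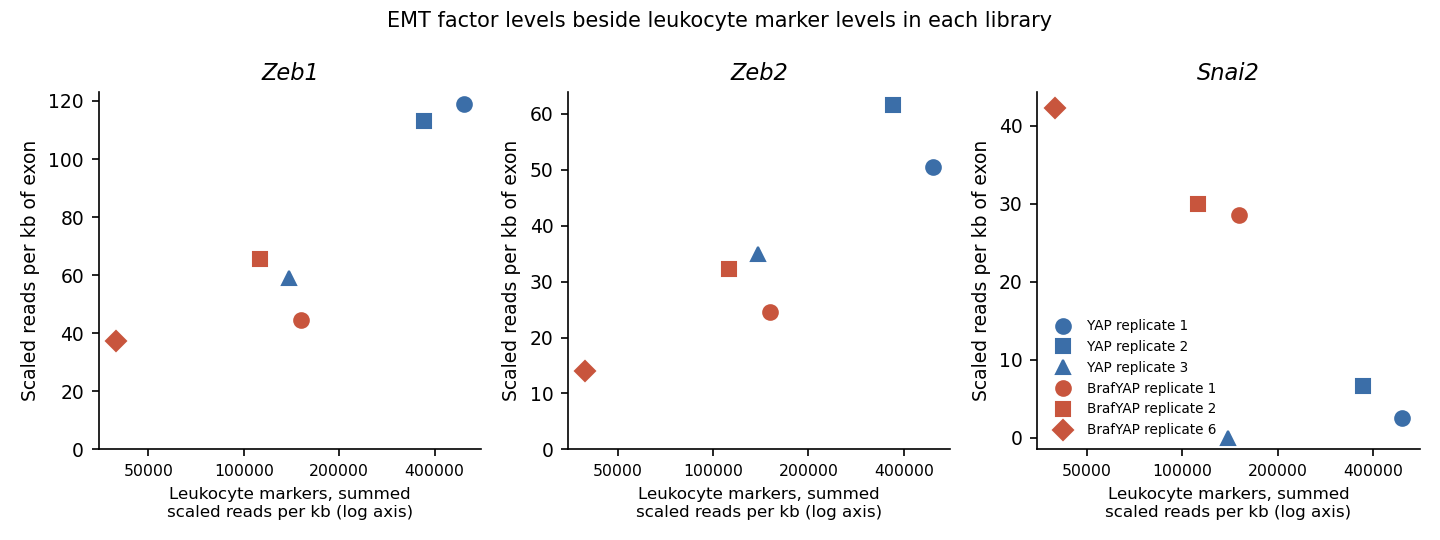
Zeb1, Zeb2 and Snai2 (scaled reads per kb of exon, linear axes) against the summed level of 9 leukocyte markers (scaled reads per kb, log axis) in each library. Most of the sum is Lyz2. YAP replicates 1 and 2 have the highest leukocyte sums and the highest Zeb1 and Zeb2, and BrafYAP replicate 6 has the lowest sum (39565), the lowest Zeb1 and Zeb2 and the highest Snai2.

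E-cadherin was expressed at a high level in both genotypes and N-cadherin at a trace level in both. Cdh1 (ENSMUSG00000000303.12, chr8:106603351-106670246, plus strand) was at 2089, 2791 and 6646 scaled reads per kb in YAP and at 5167, 2742 and 3069 in BrafYAP. The highest and the lowest library were both YAP libraries, and the BrafYAP values lay between them. The means were 3842 ± 2453 and 3659 ± 1316 scaled reads per kb (SD, n = 3 each). The log2 fold change was 0.06 (SE 0.49, 95% interval -1.09 to 1.2, adjusted p = 0.960 by limma), and its sign changed with the library left out, from -0.29 without YAP replicate 1 to 0.54 without YAP replicate 3. A change within that interval was not detectable with this spread.

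Cdh2 (ENSMUSG00000024304.14, chr18:16588877-16809246, minus strand) had 76, 87 and 1 estimated reads in YAP and 30, 56 and 24 in BrafYAP, or 9.69, 13.2 and 0.128 against 4.12, 5.45 and 2.64 scaled reads per kb. The 3 BrafYAP libraries lay between YAP replicate 3 and the other YAP libraries. The means were 7.67 ± 6.76 and 4.07 ± 1.40 scaled reads per kb (SD, n = 3 each), lower in BrafYAP. For Cdh2 the log2 fold change, which has the opposite sign, was 0.33 (SE 1.46, 95% interval -3.09 to 3.75, adjusted p = 0.917 by limma), and YAP replicate 3 decided its sign: without it the value was -1.5 (unadjusted p = 0.0372, adjusted p = 0.331 by limma). With array weights it was 3.29 (unadjusted p = 0.0187, adjusted p = 0.0613 by limma). The level of Cdh1 exceeded that of Cdh2 by a factor of 216 and 212 in YAP replicates 1 and 2 and of 1254, 503 and 1162 in the BrafYAP libraries. In YAP replicate 3 it was 52054, on 1 read of Cdh2. No library approached equal levels of the pair.

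Vim (ENSMUSG00000026728.9, chr2:13573927-13582826, plus strand), the mesenchymal filament gene, was the most abundant of the 10 by its mean and varied widely within each genotype. It was at 3707, 12777 and 5477 scaled reads per kb in YAP and at 18644, 24983 and 2095 in BrafYAP. BrafYAP replicates 1 and 2 were the highest of the 6 libraries and BrafYAP replicate 6 the lowest. The means were 7320.3 ± 4808 and 15241 ± 11818 scaled reads per kb (SD, n = 3 each), and the log2 fold change was 0.64 (SE 0.96, 95% interval -1.61 to 2.89, adjusted p = 0.732 by limma). Leaving out BrafYAP replicate 2 brought it to -0.03, and leaving out BrafYAP replicate 6 to 1.76 (adjusted p = 0.146 by limma). The ratio of Vim to Cdh1, per kb, was 1.77, 4.58 and 0.824 in YAP and 3.61, 9.11 and 0.683 in BrafYAP, so that Vim exceeded Cdh1 in 2 of 3 libraries of each group. Leukocytes and fibroblasts express vimentin too, and the part of either in these values was not tested. The order of the libraries by Vim was the order by Snai1 with the exception of YAP replicate 1 and BrafYAP replicate 6: both genes were highest in BrafYAP replicate 2 and next in BrafYAP replicate 1.

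The epithelial regulators Esrp1 and Grhl2 had overlapping levels in the genotypes, like Cdh1. Esrp1 (ENSMUSG00000040728.15, chr4:11331933-11386783, minus strand) was at 126, 51.6 and 169 scaled reads per kb in YAP and at 137, 81.8 and 120 in BrafYAP. Its means were 115 ± 59.5 and 113 ± 28.3 (SD, n = 3 each), with a log2 fold change of 0.10 (SE 0.49, 95% interval -1.04 to 1.24, adjusted p = 0.927 by limma) that ran from -0.40 to 0.45 with 1 library left out. Grhl2 (ENSMUSG00000022286.16, chr15:37233036-37363569, plus strand) was at 30.7, 27.8 and 99.4 scaled reads per kb in YAP and at 81.0, 33.3 and 70.3 in BrafYAP. Its means were 52.6 ± 40.5 and 61.5 ± 25.0 (SD, n = 3 each), with a log2 fold change of 0.39 (SE 0.59, 95% interval -1.0 to 1.77, adjusted p = 0.737 by limma) that ran from 0.06 to 0.97. YAP replicate 3 had the highest Cdh1, Esrp1 and Grhl2 of the 6 libraries, no Snai2 read and 1 Cdh2 read. Gm16136, which overlaps Grhl2 on the opposite strand, had 216, 100 and 331 estimated reads in YAP and 307, 152 and 988 in BrafYAP, of the same order as the 196 to 831 of Grhl2, so the Grhl2 values are uncertain.

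Around the 10 genes, 5 lists of related genes were read from the same fit, and 0 genes of any of them passed the adjusted threshold. Of 23 epithelial surface and junction genes, all tested, 6 were higher and 1 lower in BrafYAP at an unadjusted p under 0.05 (9.68% and 10.5% of all genes), 18 had a positive and 5 a negative log2 fold change, and the median was 0.78 beside -0.12 over all genes. The 6 included Spint2 (694 ± 256 in YAP and 2753 ± 1356 in BrafYAP, scaled reads per kb, mean ± SD, n = 3) and Spint1 (628 ± 451 and 2803 ± 1447), inhibitors of membrane serine proteases, with log2 fold changes of 1.96 (SE 0.45) and 2.30 (SE 0.61) and adjusted p-values of 0.103 and 0.118 by limma. Tmem30b, a subunit of phospholipid flippases, was at 35.0 ± 26.5 and 179 ± 66.5 (log2 fold change 2.59, SE 0.65, adjusted p = 0.112 by limma). The lower gene was Dsp, the desmosomal plaque protein desmoplakin, at 241 ± 52.2 and 119.9 ± 26.3 (log2 fold change -1.01, SE 0.31, adjusted p = 0.151 by limma). The median of the list ranged from 0.22 without YAP replicate 1 to 1.27 without YAP replicate 3.

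Of 18 mesenchymal genes, all tested, 0 were higher and 3 lower at an unadjusted p under 0.05 (9.68% and 10.5% of all genes), so that the number called was near the background share of 20.2%, and 15 had negative log2 fold changes (median -1.19). Thy1, a surface glycoprotein of fibroblasts and T cells, was at 48.2 ± 24.4 scaled reads per kb in YAP and 7.95 ± 2.08 in BrafYAP (SD, n = 3 each), with a log2 fold change of -2.47 (SE 0.50, adjusted p = 0.0895 by limma). Acta2, smooth muscle actin, was at 7596 ± 2510.3 and 1348 ± 926 (log2 fold change -2.84, SE 0.73, adjusted p = 0.114 by limma). Sparc, a matrix glycoprotein, was at 50223 ± 15688 and 19823 ± 11855 (log2 fold change -1.57, SE 0.62, adjusted p = 0.223 by limma), and Tagln, the actin-binding protein transgelin, at 1176 ± 548 and 490.2 ± 277 (log2 fold change -1.37, SE 0.59, adjusted p = 0.252 by limma). BrafYAP replicate 6 weighed heavily here. Without it the list median was -0.15, and the log2 fold changes of Acta2 and Sparc were -1.97 and -0.86. Vim itself did not share this direction in its mean.

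Of 11 epithelial-state factors and splicing regulators, 10 were tested. At an unadjusted p under 0.05, 3 were higher and 0 lower (9.68% and 10.5% of all genes). The median log2 fold change was 0.72, or 0.13 without BrafYAP replicate 6. Esrp2, the paralog of Esrp1, was at 35.6, 87.3 and 119 scaled reads per kb in YAP and at 262, 139 and 277 in BrafYAP, with all 3 BrafYAP libraries higher (log2 fold change 1.58, SE 0.52, adjusted p = 0.165 by limma). Ovol2, a zinc-finger repressor of Zeb1, was at 1.95, 3.47 and 5.36 against 21.5, 15.6 and 20.2, on 4 to 11 and 41 to 48 estimated reads (log2 fold change 2.34, SE 0.61, adjusted p = 0.116 by limma). It was tested only through its BrafYAP level, at a mean of 40.3 scaled reads against 7.59 in YAP. Klf5, a Krüppel-like factor of epithelia, was at 43.4 ± 14.5 and 92.0 ± 7.35 scaled reads per kb (SD, n = 3 each), also without overlap (log2 fold change 1.13, SE 0.34, adjusted p = 0.144 by limma). Ehf, an epithelial ETS factor, was at 2.85 to 11.4 in YAP, and 1 of the 3 BrafYAP libraries, replicate 6, stood at 325, so that its log2 fold change of 1.92 (adjusted p = 0.481 by limma) was 0.12 without that library.

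Of 12 further EMT transcription factors, 9 were tested. At an unadjusted p under 0.05, 1 was higher and 0 lower (9.68% and 10.5% of all genes), with 4 positive and 5 negative log2 fold changes (median -0.20). The higher gene was Tcf3, the E-protein E2A that can repress Cdh1, at 25.5, 174 and 109 scaled reads per kb in YAP and 306, 516 and 289.5 in BrafYAP (log2 fold change 2.18, SE 0.70, adjusted p = 0.158 by limma). Id1, an inhibitor of E-proteins, was at 1325 ± 1203 and 2700.3 ± 902 (SD, n = 3 each), with overlap (log2 fold change 1.47, SE 0.74, adjusted p = 0.314 by limma). Foxc1, a forkhead factor, and Klf8, a Krüppel-like repressor, were scarce, at 3.55 ± 2.65 against 0.69 ± 1.04 and at 9.64 ± 6.48 against 2.49 ± 2.28 (adjusted p = 0.260 and 0.305 by limma). Foxc1 was tested only through its YAP level, at a mean of 20.7 scaled reads against 4.03 in BrafYAP. Of 9 other cadherins and catenins, 8 were tested, 1 was higher and 1 lower at this level (9.68% and 10.5% of all genes), and the median was -0.03. Ctnnb1, β-catenin, the partner of E-cadherin and effector of Wnt signaling, was at 889, 1508 and 1187 scaled reads per kb in YAP and at 2998, 3814 and 3045 in BrafYAP (log2 fold change 1.48, SE 0.30, adjusted p = 0.0889 by limma), and it was between 1.29 and 1.67 with 1 library left out. Cdh16, the kidney- and thyroid-specific cadherin, was at 1451, 809 and 2392 in YAP and at 585, 193 and 223 in BrafYAP (log2 fold change -2.27, SE 0.55, adjusted p = 0.108 by limma). Jup, plakoglobin, was at 1346 ± 857 and 2780.3 ± 391 without overlap (log2 fold change 1.35, SE 0.61, adjusted p = 0.270 by limma). For Cdh3, P-cadherin, at 157 ± 55.9 and 69.3 ± 57.2, the log2 fold change of -2.17 (adjusted p = 0.373 by limma) was -0.54 without BrafYAP replicate 6.

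**Figure D4:**
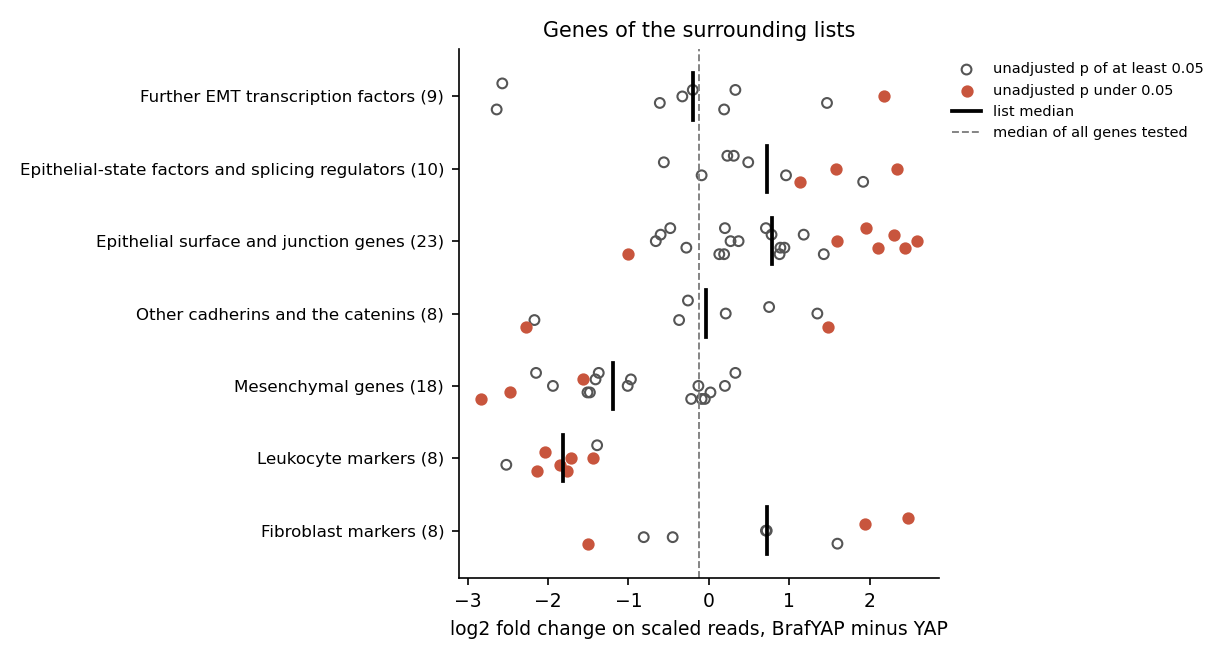
Log2 fold change on scaled reads, BrafYAP minus YAP, for each tested gene of the 5 lists and of the leukocyte and fibroblast markers, with the number tested in brackets. Filled points have an unadjusted p under 0.05, bars are list medians and the dashed line is the median of all genes tested (-0.12). Epithelial lists have medians of 0.72 and 0.78, mesenchymal genes -1.19 and leukocyte markers -1.81.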

How the data were processed

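RNA-seq was carried out on Kate-positive cells of mouse thyroid tumors. Samples were grouped by title, and the labels give no batch. RNA was amplified with a SMART-Seq v4 kit (12 cycles), libraries were made with 8 PCR cycles and sequenced as paired 50-nt reads. Per the labels dox chow began at 4 weeks, as in the study's methods, and YAP libraries were pools of 3 tumors; the study's results text gives a later start and its methods no pooling, and here the labels were used.

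The authors aligned reads to mm10 (STAR 2.6.1d), assigned them to Ensembl genes by the Partek E/M algorithm and deposited TPM with 0.0001 added. Multiplied by genomic span (GENCODE M21, same build), 71.7 to 76.1% of low values per library were whole multiples of 1 step (within 0.05, under 200 reads), against 22.4 to 25.1% by exonic length. The deposited TPM were therefore multiplied by span and put in units of the geometric mean step (scaled reads), which keeps the authors' scaling between libraries. No count model was run, since TPM do not hold counts. Introns in the divisor put long genes near 0 in the deposited values. Reads carry no molecular identifiers, and the floor of a count of 0 covers counting error alone. The strand setting of the counting was not given in the sources used here.

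Log2(scaled reads + 1) of genes with a mean of at least 10 was fitted with limma 3.58.1 in R 4.3.3 (eBayes with trend, two-sided, Benjamini-Hochberg over all genes, threshold 0.05) over all 6 libraries without covariates, and the script was tested on simulated data. Replicates are tumors or pools of tumors, and p-values measure the spread between these libraries. The 10 genes and all lists were chosen with earlier results of these data known. Named list genes are up to 4 in each list with the smallest p. Symbols were matched for 34640 genes at one locus. One marker gene of thyroid follicular cells is not reported here.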

Additional observations from a re-analysis of the deposited data

How the results depend on the processing

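The count of genes past the adjusted threshold, 0 in the reported fit, was 18 on the deposited values, 63 on exonic length, 45 with a pseudocount of 10, 62 after quantile normalization, 20 without the trend and 4653 with array weights, and 0 to 142 with 1 library left out (3 without YAP replicate 2 and 142 without BrafYAP replicate 6). It was 0 with a pseudocount of 0.1, a minimum mean of 50 (Snai2 not tested), no filter, or median-ratio size factors. Of the 9 genes tested with array weights, 3 passed, Snai1 (1.48), Snai2 (5.39) and Vim (1.69), as did 14 list genes. In that fit 4653 of all 16832 genes tested passed, so these counts are no result about the genes as a set. None of the 10 that was tested passed in the other alternatives run. Fewer of the 10 were tested in some of these: 2 on the deposited values, 8 on exonic length and 7 at a minimum mean of 50. Array weights give the libraries unequal weight, estimated here from 6 libraries, and which fit is the better one was not tested. With them Snai2 (5.39) and Cdh2 (3.29) moved away from their values without YAP replicate 3 (2.85 and -1.5). YAP replicate 3 had 0 reads of Snai2 and 1 of Cdh2, and the weight it received in that fit was not examined. Only Snai2 kept its sign and an unadjusted p under 0.05 in each fit that left out a library. The sign of the log2 fold change turned for Cdh1 with array weights (-0.50) and with 1 library left out (-0.29 to 0.54). For Cdh2 it turned with a pseudocount of 10 (-0.21), with the replicate block described below (-1.23) and with 1 library left out (-1.5 to 1.36). Array weights kept the sign of Cdh2, at 3.29 (adjusted p = 0.0613 by limma). Esrp1 turned with array weights (-0.39) and with 1 library left out (-0.40 to 0.45). Grhl2 turned with array weights (-0.48), and Vim with 1 library left out (-0.03 to 1.76). The cause of the turned signs was not tested. Median-ratio factors moved the median of all genes from -0.12 to 0.00. With array weights the list medians were -0.03 for epithelial surface genes and -0.21 for mesenchymal genes. List alternatives were chosen after seeing the data.

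The groups share only replicate numbers 1 and 2, whose deviations from the group means correlated at -0.03 and 0.05, so the numbers were treated as names. A fit with the replicate block, whose contrast rests on the 4 libraries numbered 1 and 2, gave 0 genes past the threshold and log2 fold changes of -1.23 for Cdh2, 1.65 for Vim and 1.69 for Snai1 (unadjusted p = 0.08, 0.0313 and 0.0471 by limma). In it Zeb1 and Zeb2 had an unadjusted p of 0.0534 and 0.0559 by limma, and the mesenchymal median was -0.11.

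Depth limits Twist1, Snai2 in YAP and Cdh2, each with libraries of few reads.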
